A study of Mus musculus with 5 samples.

Results

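The regions described here are dense runs of RNA polymerase II peak positions. They were chosen by the authors' deposited peak lists alone: within the list of 1 tissue, consecutive positions on a chromosome no more than 2000 bp apart were joined, and joined groups of 10 or more positions were kept as runs. This gave 2689 runs among 193279 joined groups of any size, counting a single position as a group. Brain had 811 runs, kidney 809, liver 578, lung 463 and spleen 28.

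RNA polymerase II transcribes protein-coding genes. It gathers and often pauses just downstream of the promoter and then moves through the gene body to a point past the polyadenylation site, so chromatin immunoprecipitation usually shows a sharp peak at the promoter and a lower, broad signal along the gene. At strongly transcribed genes the broad signal can be high over the whole gene.

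The study mapped RNA polymerase II by chromatin immunoprecipitation and sequencing in 5 tissues freshly taken from adult mice of the inbred strain FVB, to chart active promoters. The groups are brain, kidney, liver, lung and spleen, with no treatment named, each a mixture of the cell types of a whole organ, and all precipitated with the same Abcam antibody to RNA polymerase II, ab5408. The labels give no age beyond adult, no sex and no number of animals per tissue, and neither an input nor another control sample was analysed here. Each tissue had 1 library, so no value has a replicate error and no test between tissues was made. Counting intervals, all 95%, cover counting error only. Since the reads carry no molecular identifiers, they cannot be taken as independent molecules.

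The libraries held between 10292262 aligned reads in brain and 14964934 in liver. Reads were counted at their 5′ ends and are given per kb, divided by a scaling factor where libraries are compared (normalised reads per kb) or by the mean of the library over the genome (fold over the library mean). The spleen library stood apart: its scaling factor was 0.666 from regions with reads in every tissue and 1.06 from total reads, whereas both factors of each other library lay between 0.823 and 1.20. Spleen values normalised by regions are therefore higher than those by total reads. A stated fold or leading library that this choice turns, or a stated fold that it moves by over 1.5 times, is given both ways. Other normalised reads per kb are scaled by regions only, and the order of the lower libraries can differ by total reads. Also, 3 run loci lay within 200 kb of the first aligned read of chromosome 9 or 11. In the pair on chromosome 9, between 59.0% and 86.6% of the reads of each library repeated the position and strand of another read.

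The working name of these regions places them along gene bodies. This could not be checked: a gene annotation in the coordinates of the files was not used here, so no run was assigned to a gene, and whether runs match whole genes was not analysed here. The table of genes at hand is of assembly GRCm38, and the last aligned read on chromosome 7, at 152524509, lies past the last gene that it lists there. Its coordinates were therefore not compared with the runs. Positions below are as the files give them. The coordinates fit mm9, but the sources used here do not name the build. For the same reason the labelled tissues could not be checked against their marker genes. What could be examined is whether runs have the length, evenness and borders of continuous polymerase signal.

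Kidney and brain had nearly the same number of runs, and spleen had very few. Of all joined groups, 1.89% were runs in kidney, 1.83% in liver, 1.62% in brain, 1.09% in lung and 0.108% in spleen. Runs held 16.5% of the peak positions of liver (95% exact binomial interval 16.2% to 16.8%), 16.0% of kidney positions, 13.3% of brain, 9.28% of lung and 1.22% of spleen positions (1.104% to 1.35%). That runs held a larger share of the positions than of the groups follows from the rule, since runs are the groups with the most positions. Only the sizes of these shares come from the lists. The lists differ in length, from 31594 positions in spleen to 91712 in brain. With equal numbers of positions per list, those with most reads nearby, the order changed: liver had 256 runs, kidney 198, brain 178 and lung 119, and spleen kept its 28, since its own list set the number.

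Runs of the 5 tissues were alike in length except at the top of the range. The rule largely sets this likeness, since every run needs the same minimum number of positions and the steps between positions were alike. The median span over all runs followed that minimum, at 6.25 kb with at least 5 positions and 24.3 kb with at least 20. The median span from first to last position was 12.9 kb for liver runs, 12.4 kb for kidney, 12.2 kb for brain, 11.95 kb for lung and 11.2 kb for spleen. The longest run spanned 133 kb in liver and 127 kb in kidney, against 82.6 kb in brain, 56.6 kb in lung and 41.9 kb in spleen. Kidney had 9 runs of 50 kb or more, liver 7, brain 5, lung 2 and spleen 0. For scale, the 21896 protein-coding genes of the GRCm38 table have a median length of 17.1 kb, and 22.6% of them are at least 50 kb long.

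**Figure D1:**
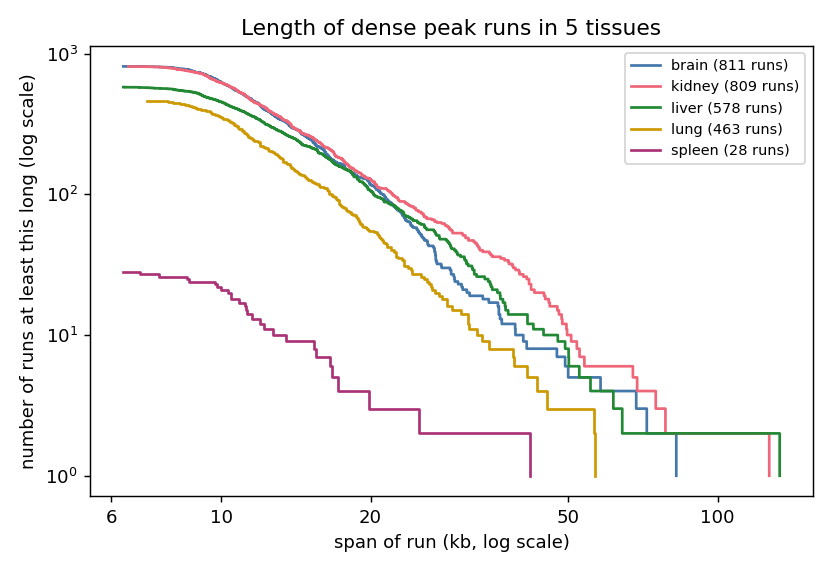
Number of runs (y axis, log scale) at least as long as the span on the x axis (kb, log scale), 1 line per tissue. The lines of brain, kidney and liver come together near 20 kb (116, 127 and 105 runs of that span or more), and those of kidney and liver reach beyond 100 kb.

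The lower limit of 10 positions cuts through a continuous range. Brain had 216 groups of 9 positions just outside it, with a median span of 8.20 kb and a median density of 6.80 times the library mean, and 168 groups of 10 positions just inside it, with 9.40 kb and 6.99 times. In kidney the counts were 206 and 151, in liver 102 and 107, in lung 154 and 115, and in spleen 14 and 9.

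Steps between positions within runs are at most 2000 bp by the rule, and they were much like steps of that size outside runs. The median step was 950 bp in brain, kidney, liver and lung and 1000 bp in spleen. In 4 tissues the middle 80% of steps lay between 550 and 1600 bp, and the smallest step was 100 bp in every list. Steps of 2000 bp or less outside runs had medians of 1000 to 1050 bp. Every such step, in and out of runs, was a multiple of 50 bp, so the lists place neighbouring positions on a fixed grid. Positions in runs also had more reads around them than positions alone: within 250 bp, a median of 24 reads against 16 in liver, 20 against 15 in kidney, 18 against 12 in lung, 16 against 12 in brain and 23 against 13 in spleen.

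Runs occurred on every chromosome except Y in brain, kidney, liver and lung. Chromosome 7 had the most in brain, with 10.2% of runs and 8.002% of listed positions, and in kidney, where both shares were close, 7.42% and 7.30%. In liver chromosome 1 led, with 10.4% of runs and 7.65% of positions, and in lung chromosome 5, with 8.42% and 6.65%. In every tissue a minority of runs stood near another. A single gap of more than 2000 bp splits a dense stretch, so neighbouring runs also arise from the rule. A further run of the same tissue began or ended within 10 kb of 28.4% of liver runs, 25.5% of kidney, 19.4% of brain, 18.4% of lung and 14.3% of spleen runs. The longest chain in liver joined 5 runs with 173 positions over 189 kb, at chr14:22020671-22210011, and that in kidney joined 7 runs with 106 positions over 118 kb, at chr14:26283216-26401051. These chains were chosen as the longest after their values were seen.

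Read density inside runs was several times the library mean and was nearly unbroken. The peaks were made from these same reads, so these values describe the runs and test nothing. The median density was 7.58 times the library mean in lung, 7.44 in liver, 7.37 in brain, 6.66 in kidney and 6.11 in spleen. Liver had the widest range, with an upper quartile of 10.7 and a highest run at 361 times its library mean. Runs of at least 10 times the mean numbered 165 in liver, 149 in brain, 109 in kidney and 106 in lung, and spleen had 7.

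Brain runs covered 0.452% of the sequence between the first and last aligned read of each chromosome and held 3.64% of the reads. Kidney runs covered 0.479% and held 3.84%, liver runs 0.352% and 3.85%, lung runs 0.249% and 2.36%, and spleen runs 0.0144% and 0.233%. Of the 30885 spleen reads in runs, only 12009 lay outside the loci near chromosome starts. In 1 kb bins within runs, the density reached 2 times the library mean in 99.3% (brain) to 99.7% (spleen) of bins. Over all 1 kb bins of the genome that level was reached by 13.6% in brain, 10.8% in kidney, 10.5% in lung, 8.55% in spleen and 8.53% in liver. In no run were under 50% of the bins at that level. With a position about every 1 kb, this evenness is partly set by how runs were joined.

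Reads in runs came from both strands equally, with between 49.9% and 50.6% on the plus strand. The share of repeated reads in runs was 6.602% in kidney to 11.8% in liver, and 34.5% in spleen. Without the loci near chromosome starts the spleen share was 10.1%, over 25 runs.

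Density outside runs was lower, yet mostly above the mean of the library. Over the sequence 2 to 10 kb beyond both edges together, it was at or under the library mean for 12 of 805 brain runs, 10 of 801 in kidney, 8 of 572 in liver, 9 of 460 in lung and 2 of 28 in spleen. The median flank lay between 3.18 (spleen) and 3.48 (lung) times the mean. Compared with these flanks, other runs of the tissue left out, the median density inside was 2.23 times as high in brain, 2.14 in lung, 2.11 in spleen and 2.02 in both kidney and liver. The ratio was under 1.5 for 218 brain, 225 kidney, 175 liver, 113 lung and 7 spleen runs, and at least 4 for 115, 118, 140, 86 and 5.

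The other libraries did not enter the choice of a run. At brain, kidney, liver and lung runs they showed the same stretches at lower median contrast. Spleen runs had a higher median ratio in the kidney library, 2.21, than in spleen, 2.11. In brain runs the median ratio of inside to flank was 1.61 in the lung library, 1.52 in kidney, 1.32 in liver and 1.31 in spleen. Kidney runs gave 1.72 in lung, 1.67 in brain, 1.49 in liver and 1.30 in spleen. Lung runs gave 1.81 in brain and 1.72 in kidney. Liver runs had the lowest values elsewhere, from 1.51 in kidney to 1.21 in spleen. A library's own runs gave its highest median in every column except that of kidney, where the 28 spleen runs stood at 2.21. Per run, the own library had the highest ratio of the 5 in 59.3% of brain, 58.7% of liver, 51.1% of lung, 37.8% of kidney and 32.1% of spleen runs.

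**Figure D2:**
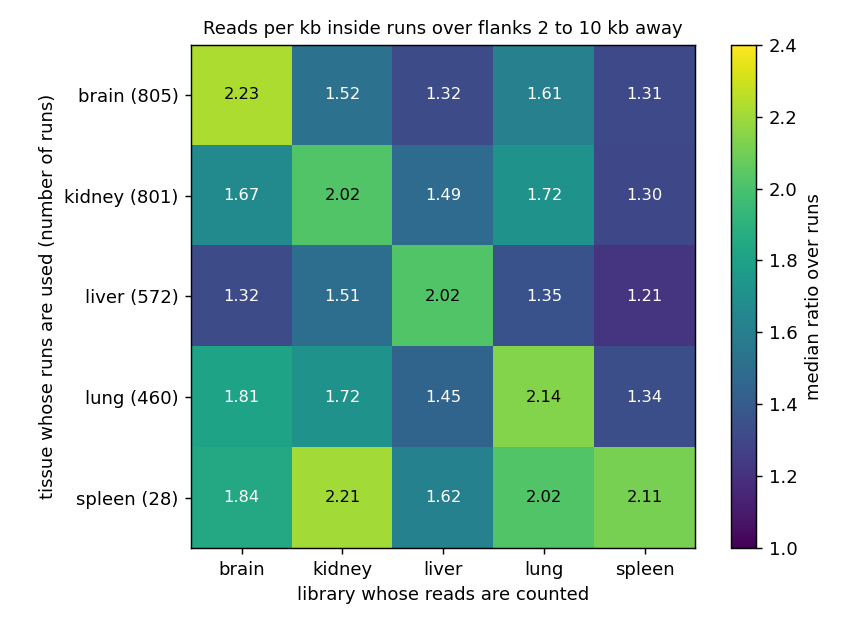
Median over runs of read density inside the run over that 2 to 10 kb away (colour and printed value). Rows give the tissue whose runs were used, with the number of runs that had a flank, and columns the library whose reads were counted. The diagonal holds 2.02 to 2.23, and liver runs read in the spleen library have the lowest value, 1.21.

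Across the edges of runs of at least 12 kb, the own signal changed within about 1 kb. In brain runs the median density was 2.51 times the library mean 1.25 kb outside the edge and 7.02 times 0.25 kb inside it. Liver runs went from 2.42 to 6.90, kidney from 2.62 to 6.37 and lung from 2.86 to 7.14. Further out, 2.25 kb from the edge, the own density was higher again, at 3.51 in brain, 3.11 in liver, 3.37 in kidney and 3.33 in lung. A position of the list sits at each edge by construction, and the next lies more than 2000 bp away, so part of this step belongs to the rule. In the libraries that the rule did not use, the density at these edges rose too: over brain edges from 1.43 to 3.33 times the mean in lung, and over lung edges from 2.01 to 4.51 in brain and from 2.25 to 4.87 in kidney. The spleen library showed the smallest step at kidney, liver and lung edges, for example from 1.17 to 1.55 at liver edges, and the liver library at brain edges, from 1.38 to 2.07. A 500 bp bin holds few reads, so these medians move in coarse steps.

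**Figure D3:**
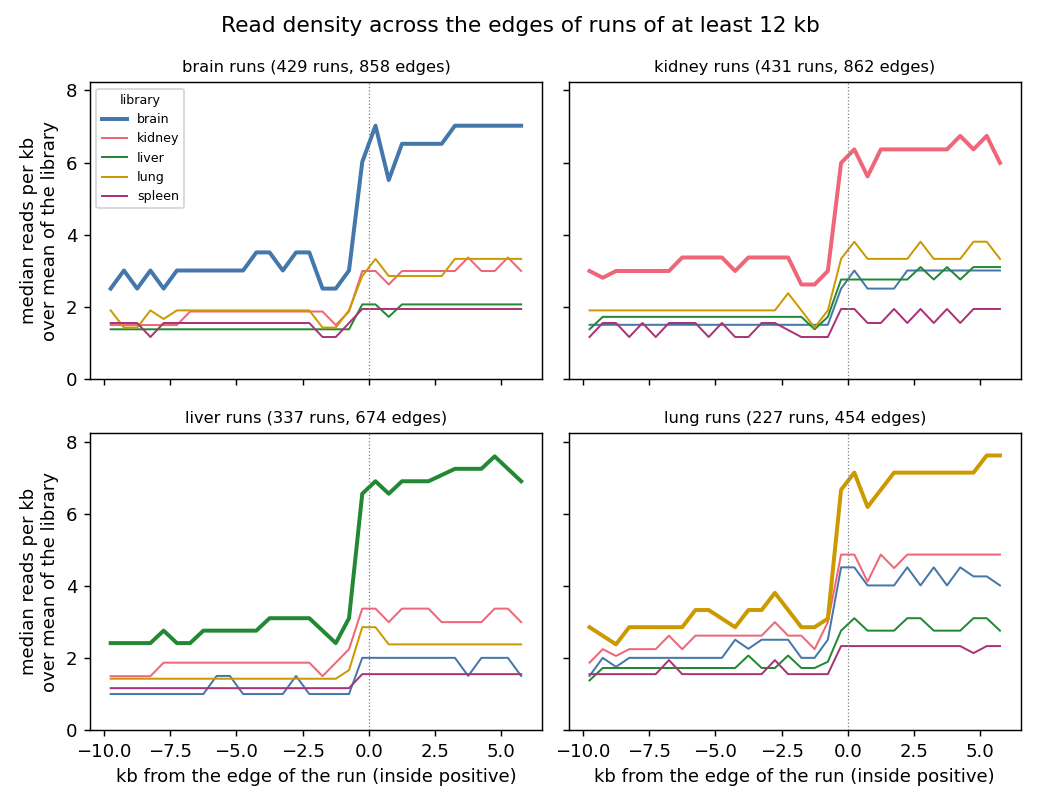
Median read density in 500 bp bins, over the library mean (y axis), by distance from the edge of runs of at least 12 kb (x axis, kb, positive inside), for the runs of 4 tissues and the reads of 5 libraries. The thick line is the tissue's own library, which steps up to between 6.37 and 7.14 times its mean just inside the edge. The thin lines of the other libraries step at the same place to lower levels.

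The 2 edges of a run were often unlike. Measured edge by edge over 2 to 10 kb, with neighbouring runs kept in, the density fell at least 2-fold beyond both edges in 30.7% of brain, 30.2% of lung, 27.5% of liver and 23.9% of kidney runs, and in 7 of 28 spleen runs. It did so beyond 1 edge only in 38.2% (liver) to 60.7% (spleen) of runs, and beyond neither in 34.3% of liver, 33.4% of kidney, 28.1% of brain, 27.6% of lung and 14.3% of spleen runs. The sequence beyond an edge was denser than the run itself in 158 brain, 161 kidney, 142 liver, 91 lung and 4 spleen runs. A run is therefore a stretch of the list and in many cases only a segment of a wider dense region.

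Along their length most runs were even. In 500 bp bins, the highest bin was a median of 2.35 times the middle bin in lung, 2.25 in brain, 2.24 in liver, 2.09 in kidney and 2.04 in spleen. It was 5 times or more in 45 liver, 35 lung, 30 brain, 18 kidney and 1 spleen runs. The highest bin lay within 2 kb of an end in 42.2% of liver runs, where those ends make up 30.7% of the run length on average. This share was 37.4% against 32.7% in lung, 34.2% against 31.6% in kidney, and 32.7% against 31.9% in brain. The denser end exceeded the other at least 2-fold in 27.0% of lung, 22.5% of liver, 20.1% of brain, 15.2% of kidney and 7.14% of spleen runs.

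Where runs of 2 tissues overlapped, the denser end was more often the same than not. With only 2 ends, agreement as frequent as disagreement carries no information, and brain and liver were close to that. It was the same in 538 of 800 comparisons (67.2%), with 76.3% of 156 for kidney and lung and 53.9% of 76 for brain and liver. The highest bins of the 2 tissues lay within 500 bp of each other in 327 of 827 comparisons (39.5%), with no expected share computed.

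Windows of 5 to 20 times the library mean were far fewer in spleen than in each other library. Above 20 times, only brain had fewer than spleen. In windows of 10 kb, mean positions per window rose with density in every library, for example in brain from 1.33 at 2 to 3 times the library mean to 6.59 at 5 to 10 times and 7.98 at 10 to 20 times. Spleen had 148 windows at 5 to 10 times its mean, while brain had 2798, lung 2272, kidney 2089 and liver 1737. At 10 to 20 times spleen had 20, and the other 4 libraries had 220 to 355. Above 20 times there were 18 in spleen and 14 in brain, with 39 in kidney, 56 in lung and 149 in liver. At 5 to 10 times the mean, a spleen window held 4.85 positions on average and a kidney window 7.17. Above 20 times the mean, the number of positions was lower than at 10 to 20 times in brain, kidney and liver, at 6.71, 7.85 and 6.98.

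**Figure D4:**
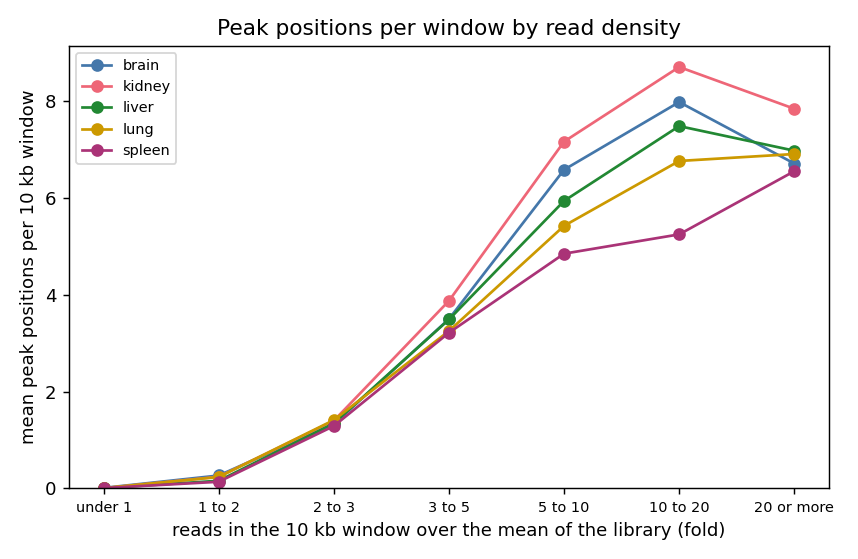
Mean number of listed positions in 10 kb windows (y axis) by the density of reads in the window over the library mean (x axis, classes), 1 line per tissue. Positions per window rise to 10 to 20 times the mean in all 5 tissues, where kidney has 8.71 and spleen 5.25, and are lower in the top class in brain, kidney and liver.

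Merging the runs of all tissues wherever they overlapped by at least 1 bp gave 1974 loci, and most had a run in a single tissue. Of these loci, 1546 (78.3%) had a run in 1 tissue and 289 in 2. Further, 104 loci had runs in 3 tissues, 31 in 4 and 4 in all 5. Among all 186413 merged peak regions, which are much shorter, 66.3% held a position in a single tissue. Loci with runs in more tissues were longer, from a median of 12.1 kb with 1 tissue to 23.3 kb with 4, as merging itself lengthens them. Lung runs overlapped a run of another tissue most often among the 4 larger sets, in 57.0% of cases, followed by kidney at 46.1%, liver at 37.9% and brain at 33.2%. Spleen had 18 of 28.

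Kidney took part in both pairs with the most overlap. Of kidney runs, 23.4% overlapped a brain run, 22.6% a liver run and 22.5% a lung run. Seen from the other side, 39.7% of lung, 32.2% of liver and 23.6% of brain runs overlapped a kidney run. By shared length over joint length, kidney and lung led with 0.139, then kidney and liver with 0.119, brain and lung with 0.114 and brain and kidney with 0.104. Brain and liver had 0.0451. Loci with runs in 2 tissues only were most often those of kidney and liver (82), of brain and kidney (71) and of kidney and lung (55). Over all tissues, longer runs were shared more often: 37.5% of runs with 10 to 12 positions overlapped another tissue's run, 46.2% with 13 to 19 and 48.3% with 20 or more. Any overlap counted, so a longer run had more sequence to meet another, and no allowance was made for length. The few spleen runs did not follow this order, with 66.7%, 42.9% and 100%.

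A run in 1 list did not mean that the others were empty. At the 542 brain-only loci, another list had 5 or more positions at 254 and none at 106. At 436 kidney-only loci these numbers were 278 and 42, at 359 liver-only loci 155 and 74, at 199 lung-only loci 134 and 9, and at 10 spleen-only loci 8 and 0. In read density the tissue with the run was still the highest of the 5 at most one-tissue loci: at 342 of 359 liver loci (95.3%), 400 of 436 kidney loci (91.7%), 484 of 542 brain loci (89.3%), 139 of 199 lung loci (69.8%) and 9 of 10 spleen loci. The own list chose these loci, so a high own density is part of the choice. With scaling by total reads the counts were 329, 365, 513, 180 and 6. In whole organs, fewer cells of a type and less polymerase per cell cannot be told apart. The median fold over the next highest library, scaled by regions, was 2.55 in liver, 1.84 in kidney, 1.61 in brain and 1.22 in lung. By total reads it was 2.58, 1.66, 2.08 and 1.74, which puts brain above kidney, and for spleen-only loci it was 1.11 in place of 2.25.

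Liver had the most loci with a large difference under either scaling, with brain close behind when total reads were used. A locus at least 4-fold higher in 1 library than in each other, with at least 20 reads, was found 108 times for liver, 37 for kidney, 9 for brain, 9 for lung and 3 for spleen. Among all 186413 merged peak regions of the series, which are shorter and have fewer reads, 1.96% met the same rule for liver, 0.812% for kidney, 0.573% for brain, 0.116% for lung and 0.327% for spleen, against 5.47%, 1.87%, 0.456%, 0.456% and 0.152% of the run loci. The shares of brain loci and regions were thus close. The brain count moved most with the scaling: with total reads 119 loci passed for brain, 123 for liver, 44 for kidney, 17 for lung and 0 for spleen. With the spleen library left out, 101 passed for brain, 72 for kidney, 144 for liver and 13 for lung. Both scalings called 101 loci for liver, 27 for kidney and all 9 for brain and for lung. At 8-fold, 34 liver and 2 kidney loci passed.

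The longest runs show both uniform and tissue-limited signal. In kidney, the run with most positions, chr2:69296971-69424021, had 130 positions over 127 kb. It held 56.8 normalised reads per kb in kidney, 8.04 in lung, 7.89 in spleen, 4.35 in liver and 2.72 in brain. Kidney was 7.06-fold above lung (95% exact interval of the counts 6.64 to 7.52). In 10 equal parts of its length the kidney density stayed between 44.3 and 65.4. Its last edge was sharp, 8.35-fold above the sequence after it, while the sequence before it was denser than the run, which was 0.751 times that level.

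The liver run with most positions, chr15:58780296-58913646, had 140 positions over 133 kb. Its normalised reads per kb were 63.6 in liver, 23.7 in kidney, 16.7 in spleen, 14.7 in lung and 11.5 in brain. Signal was thus present in all 5 libraries, and kidney and lung had runs within it, with 93 and 65 listed positions. Liver was 2.69-fold above kidney (2.59 to 2.80). Of 10 equal parts, the first had 53.0 in liver and the last, at the greater coordinate, had the highest value, 88.3. Beyond that edge the density was 6.43-fold lower.

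In brain the longest run, chr6:30998056-31080606, had 87 positions over 82.6 kb and was not limited to brain. Its normalised reads per kb were 39.9 in brain, 33.9 in kidney, 29.96 in lung, 24.7 in liver and 21.1 in spleen, and kidney, liver and lung had runs there too. The profile differed more than the level: brain kept between 33.8 and 48.3 in each of 10 equal parts, whereas liver ranged from 8.97 in the first to 39.2 in the eighth. The second brain run, chr1:94909596-94981596, with 78 positions, had 33.3 in brain, 12.8 in spleen, 5.89 in liver, 5.22 in kidney and 5.16 in lung. Brain was 2.59-fold above spleen there, and 5.15-fold with total reads. No position was listed there for kidney, liver or lung and 1 for spleen.

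The lung run with most positions, chr9:63805851-63862401, had 62 over 56.6 kb and 39.8 normalised reads per kb in lung, 17.9 in kidney, 17.5 in liver, 11.5 in spleen and 8.29 in brain. Although only lung had a run, kidney and liver each had 14 positions in the same stretch. It ended at neither side by a fall in density, at 0.4996 and 0.923 times the level beyond its edges. The next 2 lung runs, chr1:73954071-74010421 and chr1:74013271-74056471, lay in a locus where kidney was higher than lung, with 109 against 63.1 and 84.8 against 41.2 normalised reads per kb.

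Among spleen runs, chr12:114643556-114668556 stood out against the other tissues. It had 30 positions over 25.001 kb and 131 normalised reads per kb in spleen, 16.6 in lung, 8.65 in liver, 5.86 in kidney and 5.30 in brain. Spleen was 7.89-fold above lung (7.13 to 8.74), which also had a run there, and 3.81-fold with total reads. Both edges were sharp, 21.1-fold and 27.9-fold above the sequence outside. Of 10 equal parts, the sixth and the seventh were the highest in both spleen, at 193 and 243, and lung, at 34.8 and 29.1. The other leading spleen runs lay near chromosome starts or at a locus where liver was far higher.

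**Figure D5:**
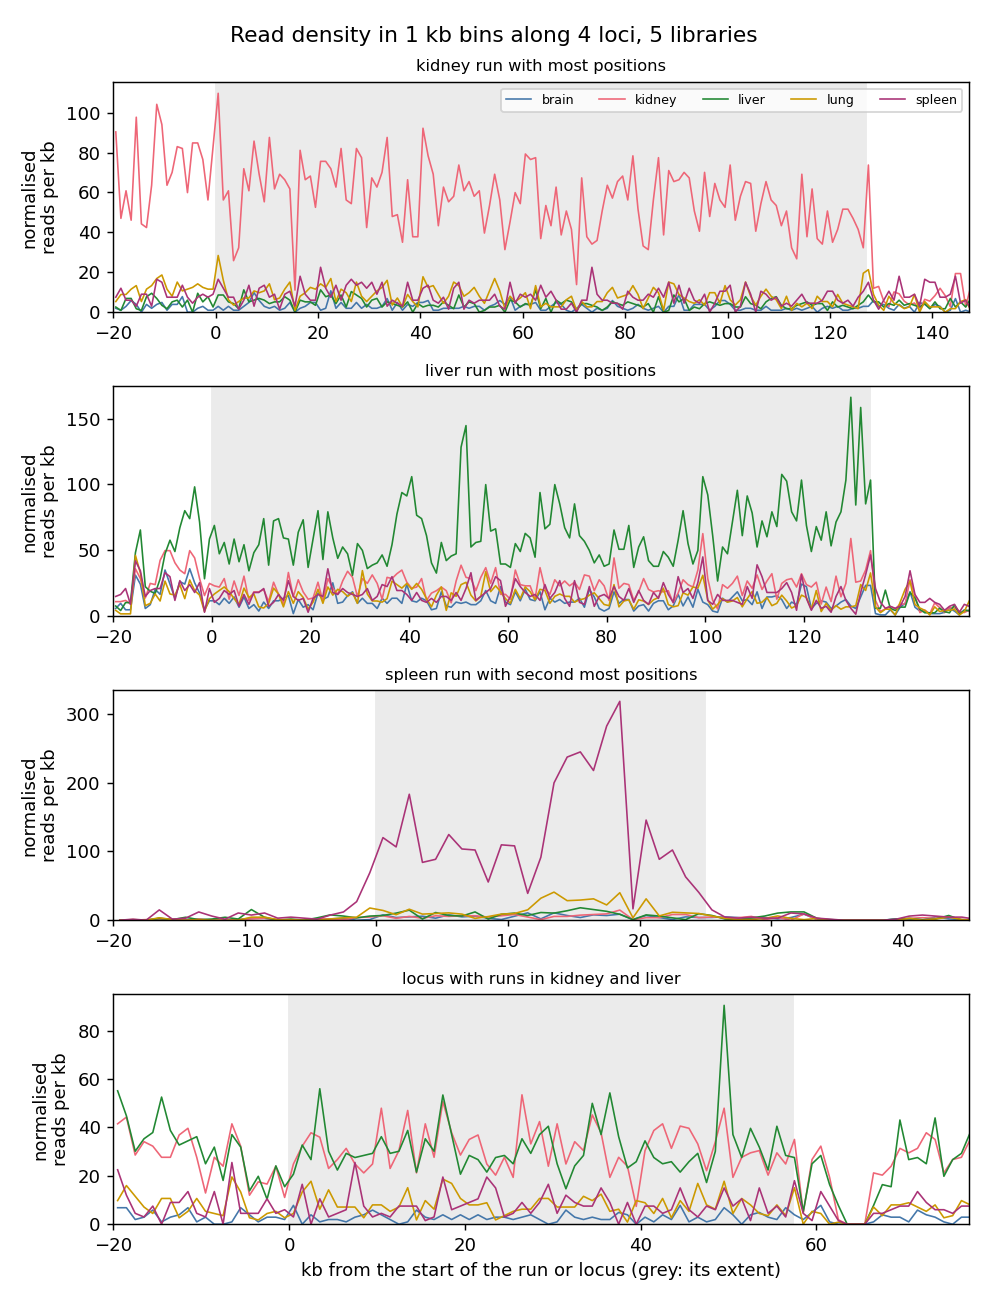
Normalised reads per kb in 1 kb bins (y axis) by distance in kb from the start of the run or locus (x axis, grey over its extent), with 1 line per library, for 4 loci. The kidney and spleen runs are far higher in their own library, liver leads with lower signal in the other 4 in the second panel, and kidney and liver lie over each other in the last. The dense kidney signal goes on before the start of its run.

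The 3 densest liver runs were many times higher in liver than in any other library. The liver run chr5:90890091-90901341 had 11 positions over 11.3 kb and 1801 normalised reads per kb in liver, from 23524 reads. Spleen had 25.3, kidney 15.1, lung 13.9 and brain 11.5, so liver was 71.1-fold above spleen (61.6 to 82.4). With the spleen library left out it was 119-fold above kidney, and with total reads 96.9-fold above lung. Repeated reads were 45.6% of the liver reads there. The run chr11:120667201-120685201 had 391 in liver and between 27.2 and 31.7 in the other 4 libraries. It belonged to a locus with runs in brain and lung too, and the brain, kidney and lung lists held 13, 11 and 14 positions in it. The run chr16:22884441-22900041 had 345 in liver, 15.3 in spleen and 7.001 or less in the other 3. Liver was 22.6-fold above spleen there, and 34.9-fold with total reads. Of liver-only loci, chr7:26958421-26974271 had the second largest fold, 30.3 (20.6 to 46.6), with 74.7 in liver and 2.46 in spleen, and every other list was empty there. This fold was 46.9 with total reads and 58.3 over kidney without spleen.

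Large folds in the other tissues were smaller than in liver. In kidney, chr13:55501086-55519586 had 208 normalised reads per kb in kidney, 25.2 in lung, 12.2 in spleen, 6.84 in liver and 4.85 in brain, and it fell 15.7-fold and 42.9-fold beyond its edges. The kidney-only locus with the largest fold, chr8:62993801-63015701, had 73.5 in kidney and 7.54 in spleen, a fold of 9.75 (8.04 to 11.9). Scaled by regions, the leading brain-only locus, chr15:76345496-76355296, had 60.0 in brain and 9.95 in spleen (6.03-fold, 4.66 to 7.91). The leading lung-only locus by regions, chr6:72254901-72268851, had 91.4 in lung and 14.0 in brain (6.51-fold, 5.61 to 7.58). By total reads neither led. The brain fold was then 8.47 at the former, but 10.04 at the brain-only locus chr2:180878146-180891646. The lung fold was 6.78 at the latter, but 8.09 at the lung-only locus chr11:89891251-89902801. For spleen alone, chr15:78388676-78399526 had 50.3 in spleen and 11.7 in lung (4.301-fold, 3.54 to 5.26), but 2.08-fold with total reads.

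Runs shared by just 2 tissues included stretches of equal height. At chr15:3365686-3422986, kidney had 31.5 normalised reads per kb and liver 31.7, with 55 and 54 positions over 57.3 kb. Lung had 8.23, spleen 7.88 and brain 2.87. The ratio of liver to kidney was 1.01 (0.945 to 1.07), and 0.992 with total reads. At chr9:40096016-40173916, with runs in brain and kidney, kidney had 40.9 and brain 25.4, while lung had 11.4, spleen 12.2 and liver 5.89. At chr10:85763491-85815621, kidney had 114 and lung 49.0, and the other 3 libraries had 14.0 or less.

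Of the 4 loci with runs in every tissue, only a pair lay away from chromosome starts. Scaled by regions, spleen had the highest value at both, and by total reads it did not. At chr15:77588136-77653931 the normalised reads per kb were 35.3 in spleen, 34.2 in kidney, 33.96 in lung, 23.4 in liver and 20.1 in brain, over 65.8 kb in which 12 runs of the 5 tissues met. By total reads they were 44.1 in lung, 33.6 in kidney, 25.04 in brain, 22.7 in liver and 22.2 in spleen. At chr7:90780591-90809796 they were 44.4 in spleen, 28.3 in brain, 26.1 in liver, 25.5 in kidney and 19.4 in lung. By total reads brain led with 35.3, spleen had 27.9, and the other 3 had 25.1 to 25.3. The runs of all 5 tissues had 4.68 kb and 7.41 kb in common.

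Near the chromosome starts every library was high. At chr9:3015491-3032196 spleen had 878 normalised reads per kb and the others 169 to 256. By total reads spleen had 551 there and the others 211 to 252. The share of repeated reads was between 64.7% in brain and 83.3% in spleen. At chr11:3029341-3100081 spleen had 215 and the others 73.0 to 114, with 8.54% to 14.2% repeated reads and between 63 and 65 positions in every list. By total reads the spleen excess at this locus was smaller, with 135 in spleen and 87.0 to 111 in the others. The kidney run chr9:3000286-3009186 was higher in spleen, at 762, than in kidney, at 188. Their part in the totals was small outside spleen: without these 3 loci brain had 807 runs, kidney 805, liver 575, lung 459 and spleen 25.

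A high read density was not enough for a run. Of the 50 run loci with the highest density in a library, that tissue had a run at 43 in brain, 40 in kidney, liver and lung each, and 18 in spleen. At 4 of the 108 loci 4-fold higher in liver, liver had no run. The following examples were chosen after their values were seen. At chr7:38968981-38986231 liver had 808 normalised reads per kb, kidney 122, spleen 94.2, lung 53.6 and brain 35.7, yet the runs there were those of brain, lung and spleen, and the liver list had 10 positions that did not form 1 run. The highest of 10 equal parts of this locus had 5426 in liver, and 66.5% of the liver reads were repeated. At chr19:44469106-44482606 liver had 475 and lung, with the only run, 30.6.

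The run with the highest density in lung belonged to a locus of 4 tissues, chr19:5822496-5852136, which was also described after its values were seen. Normalised reads per kb were 242 in liver, 230 in lung, 151 in kidney, 40.9 in spleen and 37.5 in brain. Liver was 1.05 times lung there (1.02 to 1.09), and 0.787 times lung with total reads. Brain had 30 listed positions there, as many as lung and more than the 26 of liver and kidney. At this locus the number of positions did not follow the height of the signal from one library to the next.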

How the data were processed

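For each tissue 2 files were used, both as the authors deposited them. One lists the start and end position and the strand of each aligned read. Per the submitters' processing notes the aligner was Bowtie. The sources used here give neither its version and settings nor the genome build. The other lists peak positions, each a single base on a 5 bp grid with no width or score in the deposited lists. Caller, threshold and any control sample are likewise not stated there. Per the labels' protocols, tissue was fixed with 1% formaldehyde for 10 min and chromatin was sheared to 0.2 to 0.8 kb.

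Reads of 34 to 36 bases were kept, on the 19 autosomes, X and Y. Runs were built from each list alone. Scaling factors were medians of ratios over 8222 of 186413 merged regions (250 bp to both sides of each position) with at least 20 reads in every tissue. A fold sets counts under 3 to 3, with an exact conditional binomial (Clopper-Pearson) interval. Most runs named in the text are, per tissue, among the 5 with most positions, the 3 of highest normalised density and the 3 one-tissue loci of largest fold, the loci with runs in all tissues, and the longest shared locus of the 3 most frequent pairs. The chains, the loci without a liver run and the locus of 4 tissues were chosen after their values were seen. The labels give 1 protocol for all tissues and name no batch. Lists of tissue marker genes were not used, since no gene could be placed in the coordinates of the files. The members, lists and rules were chosen with earlier results of these data known. Falls at single edges were added last and were computed under 1 setting. Run building and fold calling were tested on simulated data. The software was NumPy 2.4.6, SciPy 1.17.1, pandas 2.3.3 and Matplotlib 3.10.9 under Python 3.11.15.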

Additional observations from a re-analysis of the deposited data

How the results depend on the processing

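Of 133 recomputed values, 76 stayed within 1.5 times a count or within the spread used for a ratio, and 57 moved. Folds of named runs and loci and median folds of one-tissue loci were recomputed later, 69 with total reads and 56 without the spleen library, and 25 and 13 of them moved by over 1.5 times. With total reads, spleen over brain at chr7:90780591-90809796 became 0.789 and liver over lung at chr19:5822496-5852136 became 0.787. Without spleen, kidney was no longer below the next library at chr9:3015496-3032196 (1.09) and chr9:3000286-3009186 (1.48). The number of runs depends on the rule. With gaps of up to 1000 bp the brain, kidney, liver, lung and spleen lists gave 20, 15, 19, 9 and 0 runs, and with 5000 bp 1724, 1595, 1033, 1155 and 124. With at least 5 positions there were 3165, 2875, 1893, 2214 and 233, and with at least 20 there were 120, 141, 126, 74 and 3. With equal lists there were 178, 198, 256 and 119 in brain, kidney, liver and lung. In these 5 settings the share of all positions in runs, 12.5% as reported, was 0.209%, 33.3%, 26.9%, 4.04% and 7.58%. The median span over all runs, 12.3 kb, became 6.95, 22.3, 6.25 and 24.3 kb in the first 4.

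Loci with a run in 1 tissue numbered 63 with 1000 bp, 4687 with 5 positions and 550 with equal lists. Loci with runs in 2 or more tissues, 428 as reported, numbered 0 with 1000 bp, 1227 with 5000 bp, 1935 with 5 positions and 89 with equal lists, and those in all 5 tissues 0, 29, 43 and 2. With total reads, loci 4-fold higher numbered 119 for brain, 17 for lung and 0 for spleen. Without the spleen library, an alternative chosen after seeing the data, they numbered 101 for brain and 72 for kidney. Against flanks 10 to 30 kb away, the ratio inside runs was 2.93, 2.74, 3.25, 2.89 and 3.30 in the same order of tissues. With medians of 500 bp bins it was 2.02, 1.899 and 1.92 in brain, kidney and lung. Leaving out repeated reads, moving the read position by 100 bp, adding 250 bp at both ends, asking for an overlap of 50% and leaving out the loci near chromosome starts (chosen after seeing the data) moved none of the values they were run on past these limits. No paired analysis was possible because each tissue has 1 library. The match of runs to whole genes, and its alternative, were not run. Depth limits folds where the next library has few reads, and no interval covers differences between animals.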
